A study of Mus musculus with 10 samples.

Results

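The genes described are the fatty acid elongases Elovl1, Elovl3, Elovl5, Elovl6 and Elovl7 and the fatty acid desaturases Scd1, Scd2, Fads1, Fads2 and Fads3, chosen by symbol as 10 of the 55414 genes in the count files. They were measured by RNAseq of interscapular brown adipose tissue (iBAT) from male C57BL/6J mice 12 to 14 weeks old on normal chow. The 5 control mice were RetSat flox/flox Ucp1-Cre (-), called Cre-, and the 5 deleted mice were RetSat flox/flox Ucp1-Cre (+), called Cre+. The comparison asks which transcripts differ when RetSat, an oxidoreductase that acts on retinol, is removed from brown adipocytes. All 10 mice carry the floxed RetSat alleles, and Cre is driven by the Ucp1 promoter, so cells of iBAT that do not use this promoter keep RetSat. RNA from whole tissue does not tell fewer cells of a type from less RNA per cell.

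Fatty acids are lengthened in the membrane of the endoplasmic reticulum by a cycle of reactions, and the elongases catalyse its first and rate-limiting step, the joining of malonyl-CoA to an acyl-CoA. Elovl1, Elovl3, Elovl6 and Elovl7 act mainly on saturated and monounsaturated chains and Elovl5 mainly on polyunsaturated chains. Desaturases insert a double bond with electrons delivered through cytochrome b5: Scd1 and Scd2 make monounsaturated fatty acids such as oleate, and Fads1 and Fads2 act in turn with Elovl5 to make long polyunsaturated fatty acids from the essential ones of the diet. Elovl3 is known as an elongase of brown fat that is induced by cold, and Scd1 as a lipogenic enzyme that is abundant in adipocytes and lipogenic liver.

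The coding sequences show how near the members are to each other, which decides whether their reads can be told apart. The stretches below were read from GENCODE M21 transcripts of GRCm38, an older release than the one counted. For the elongases the capitals mark the codons of the histidine box of the active site, in which a histidine, 2 other residues and a pair of histidines follow each other.
Elovl3: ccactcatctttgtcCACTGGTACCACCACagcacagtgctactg
Elovl6: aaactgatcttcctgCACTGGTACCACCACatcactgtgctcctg
Elovl5: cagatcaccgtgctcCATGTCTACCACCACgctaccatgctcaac
Elovl1: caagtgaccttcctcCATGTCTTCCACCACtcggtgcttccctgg
Elovl7: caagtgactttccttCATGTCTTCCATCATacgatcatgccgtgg

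The box of Elovl3 and Elovl6 was the same in all 15 bases, and those of Elovl1 and Elovl7 differed in 2 of 15. Over their whole coding sequences the elongases were 59.8% to 65.2% identical in pairs, and the longest identical run of any pair was 16 bases. A read of 51 bases therefore cannot match the coding sequences of 2 of these elongases. In the stearoyl-CoA desaturases the capitals mark the codons of the first histidine box.
Scd1: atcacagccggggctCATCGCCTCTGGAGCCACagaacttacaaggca
Scd2: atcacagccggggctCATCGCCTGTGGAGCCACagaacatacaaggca

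Scd1 and Scd2 were 90.4% identical over 1068 aligned coding bases, with an identical run of 147 bases. Of all windows of 51 bases in their transcripts, 4.44% of those of Scd1 and 3.85% of those of Scd2 occurred in another gene as well, mostly each other, Scd3 and Scd4. Multiply aligned reads were left out of the counts, so reads from these windows can be missing from the values of both genes. How many were lost was not tested. In the Fads genes the capitals mark the codons of the histidine, proline and glycine pair that bind heme in their cytochrome b5-like part.
Fads1: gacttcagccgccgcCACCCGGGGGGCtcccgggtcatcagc
Fads2: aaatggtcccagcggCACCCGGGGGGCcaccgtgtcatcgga
Fads3: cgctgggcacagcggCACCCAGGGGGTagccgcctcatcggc

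The Fads genes were 66.5% to 71.1% identical in pairs, and at most 0.122% of the windows of any of them occurred in another gene. For Elovl6 this share was 3.91%, mostly with Gm11295.

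On GRCm39, 6 of the 10 members lie on chromosome 19. Fads3 (ENSMUSG00000024664.6, 10018933 to 10037474), Fads2 (ENSMUSG00000024665.9, 10040129 to 10079110, minus strand) and Fads1 (ENSMUSG00000010663.6, 10160252 to 10174241) are neighbours, with gaps of 2.7 kb and 81.1 kb. Scd2 (ENSMUSG00000025203.7, 44282113 to 44295303) and Scd1 (ENSMUSG00000037071.4, 44382894 to 44396318, minus strand) are 87.6 kb apart, and Elovl3 (ENSMUSG00000038754.6, 46120336 to 46124133) follows. Elovl6 (ENSMUSG00000041220.11) lies on chromosome 3 from 129326004 to 129432144, Elovl1 (ENSMUSG00000006390.16) on chromosome 4 from 118285290 to 118290150, Elovl5 (ENSMUSG00000032349.14) on chromosome 9 from 77824646 to 77891801 and Elovl7 (ENSMUSG00000021696.10) on chromosome 13 from 108350938 to 108422217. Strand was not used in counting. Elovl1 shares 53 exonic bases with Cdc20, Elovl6 34 with Gm35986 and Elovl3 10 with Pitx3, all on the opposite strand, and Scd2 shares 61 with Mir5114, so reads there cannot be told apart by strand.

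The total count per mouse lay between 91903095 and 132499312 (Cre-) and between 96991071 and 110293494 (Cre+). RetSat, the deleted gene, had 185 ± 42.3 CPM (counts scaled to the library total and normalized by TMM, the trimmed mean of M-values; SD, n = 5) in Cre- and 23.9 ± 8.63 in Cre+ mice. The log2 ratio, here always the log2 fold change of Cre+ over Cre-, was -2.95 (SE 0.24; adjusted p = 0.00402 by edgeR's quasi-likelihood test), and the groups did not overlap. Exons 2 and 3 of RetSat are floxed, while reads were counted over the whole gene, of which 18.4% is shared with Gm45053 on the opposite strand. Brown adipocyte markers including Ucp1 summed to 6841 to 8687 CPM (Cre-) and 6757 to 9308 CPM (Cre+). Within this list, mouse Cre+ 3 was lowest in Dio2 (79.2 CPM against 250 to 623 in all other mice) and Ppargc1a (48.8 against 106 to 394). Its other markers of the list, Ucp1 included, lay within the range of the other mice. Skeletal muscle transcripts summed to 506 CPM in mouse Cre- 2 and 244 CPM in Cre+ 4, against 1.12 to 18.7 CPM in the other 8 mice. The identifiers of libraries Cre+ 1, 4 and 5 carry an added letter that no Cre- library carries, and what the letter stands for is not stated, so letter and genotype cannot be told apart in these 3. Of the white adipocyte list, Hoxc10 was at 0 in every library and Lep and Npr3 were present. In none of the marker lists (brown, white and general adipocyte, muscle, macrophage, endothelial, Schwann cell, B cell, fibroblast and blood) did edgeR call a gene. DESeq2, which called 2.28% of all genes, called 2 of 4 B cell genes, 1 of 5 endothelial genes (Kdr) and 1 of 4 fibroblast genes (Pdgfra), each higher in Cre+ mice. By edgeR the endothelial list had 1 positive and 4 negative log2 ratios, with a median of -0.07. Its sum was 566 ± 36.1 CPM (Cre-) against 567 ± 57.5 CPM (Cre+). The fibroblast list had 3 positive and 1 negative, and the B cell list 4 positive and 0 negative. At an unadjusted p under 0.05 by edgeR, where 6.40% of all genes were higher, 3 of 4 B cell and 2 of 4 fibroblast genes were higher. So were 1 of 5 endothelial, 1 of 5 general adipocyte and 1 of 8 brown adipocyte genes, and no marker was lower at that threshold. The B cell genes summed to 0.866 to 2.52 CPM per mouse. The part of these markers in the members' values was not tested.

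Levels of different genes were compared per kilobase of annotated exon (RPKM, CPM divided by length). In Cre- mice Scd1 stood first with 10934 ± 836 RPKM (SD, n = 5), which was 63.6 times the level of Elovl6. Scd1 was the most abundant gene of the nuclear chromosomes in all 10 libraries, both by counts and per kilobase. It took 5.21% ± 0.372 of all counts in Cre- and 4.61% ± 0.681 in Cre+ mice (SD, n = 5 each). Of the summed RPKM of the 5 desaturases, Scd1 made up 99.4% ± 0.222 in Cre- and 99.4% ± 0.282 in Cre+ mice.

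Elovl6, which lengthens palmitate to stearate, the substrate of Scd1, followed with 172 ± 25.3 RPKM in Cre- mice, and its range did not overlap those of its neighbours in the order. It made up 72.8% ± 1.26 of the summed RPKM of the 5 elongases in Cre- and 73.7% ± 5.49 in Cre+ mice. Scd2 (54.5 ± 27.1 RPKM) and Elovl5 (44.9 ± 4.29 RPKM) came next in Cre- mice, and their ranges overlapped. Elovl5 and Elovl3 made up 19.2% ± 2.57 and 6.29% ± 3.01 of the summed elongase RPKM in Cre- mice.

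Elovl3 had 15.2 ± 7.56 RPKM in Cre- mice. The lower levels in Cre- mice were 3.84 ± 0.831 RPKM for Elovl1, 3.66 ± 0.758 for Fads3, 2.63 ± 0.347 for Fads2 and 2.49 ± 0.413 for Fads1. From Elovl3 to Fads1, the ranges of each gene and the next in the order overlapped in Cre- mice. Elovl7 came last with 0.125 ± 0.0297 RPKM, apart from all the others. In Cre+ mice the order was the same except that Fads3 stood before Elovl1, and these overlapped in both genotypes.

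**Figure D1:**
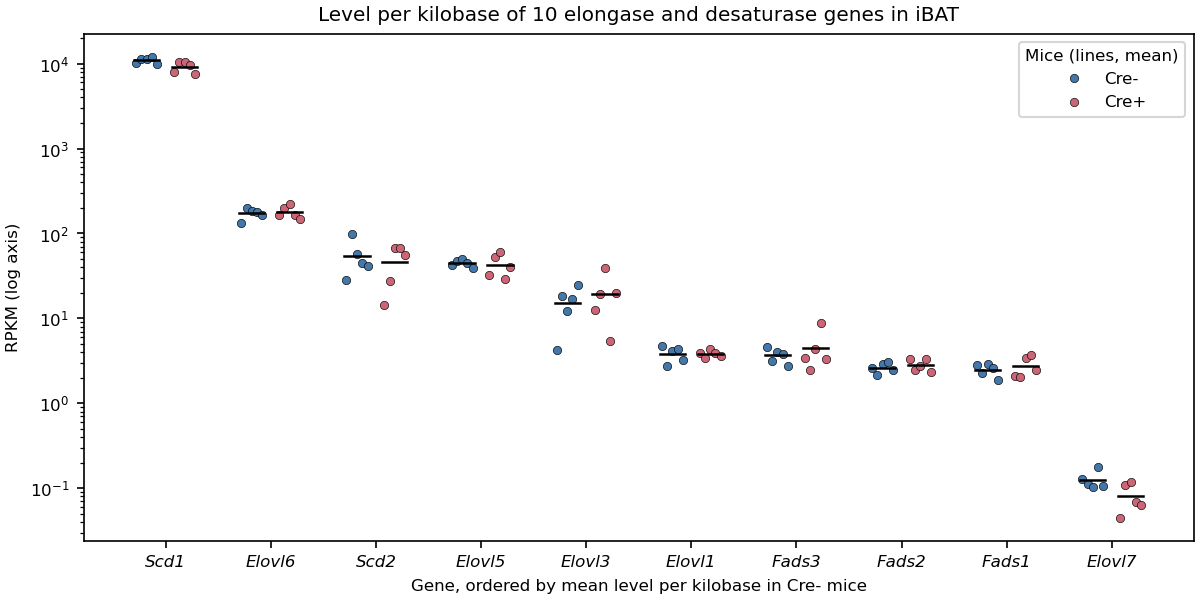
RPKM on a log axis of the 10 elongase and desaturase genes in iBAT, ordered by their mean in Cre- mice. Each point is a mouse (5 Cre-, 5 Cre+) and each line a group mean. Scd1 lies near 10934 RPKM in Cre- mice, 63.6 times above Elovl6, and Elovl7 lies near 0.125 RPKM.

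Between genotypes, none of the 10 members was called. edgeR, DESeq2 and limma voom each called 0 of the 10 at an adjusted p under 0.05, where edgeR called 29 of 17690 genes tested (0.164%), DESeq2 called 2.28% and limma voom 0.837%. At an unadjusted p under 0.05, Scd1 and Elovl7 were lower in Cre+ mice and no member was higher, while 12.3% of all genes tested passed this threshold, 5.95% as lower. In 5 members the log2 ratio was positive and in 5 negative, with a median of 0.03 against 0.00 over all genes tested. The groups overlapped for every member, while they did not for 2.67% of all genes tested.

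The elongases are given first, starting with those of saturated and monounsaturated chains. Elovl6 had 848, 1283, 1180, 1143 and 1072 CPM in Cre- mice 1 to 5 and 1064, 1266, 1418, 1071 and 949 CPM in Cre+ mice 1 to 5. The groups covered nearly the same range, with mouse Cre- 1 lowest and Cre+ 3 highest. Its log2 ratio was 0.06 (SE 0.12; adjusted p = 0.873), and its 95% interval of 0.868 to 1.26-fold lay within a 1.5-fold change in either direction.

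Elovl3 had 8.38, 35.97, 24.2, 33.3 and 48.5 CPM in Cre- mice 1 to 5 and 24.7, 37.8, 78.0, 10.6 and 38.9 CPM in Cre+ mice 1 to 5. It varied most of the members among mice, 9.31-fold from the lowest to the highest, and each group held both a mouse near 10 CPM and mice several times higher. Its log2 ratio of 0.34 (SE 0.58; adjusted p = 0.85) had a 95% interval of 0.509 to 3.14-fold. Without mouse Cre+ 3 the log2 ratio was -0.10 and without the 3 lettered libraries 0.94 (adjusted p = 0.715), so its direction depended on which mice were kept.

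Elovl1, an elongase of very long saturated chains that is expressed in most tissues, had 13.0, 7.43, 11.2, 11.8 and 8.89 CPM in the Cre- mice, against 10.7, 9.41, 11.8, 10.6 and 9.84 CPM in the Cre+ mice, in the order 1 to 5 here and for the genes that follow. All 5 Cre+ mice lay within the range of the Cre- mice. Cre+ over Cre- gave a log2 ratio of -0.00 (SE 0.14), with a 95% interval of 0.811 to 1.23-fold.

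Elovl7 was the scarcest member, with 40 to 82 counts per library in Cre- and 20 to 50 in Cre+ mice. Its values were 0.513, 0.455, 0.418, 0.704 and 0.422 CPM in the Cre- mice, against 0.180, 0.436, 0.480, 0.279 and 0.253 CPM in the Cre+ mice. Mice Cre+ 2 and 3 lay within the range of the Cre- mice, and the lettered Cre+ 1, 4 and 5 lay below it. The log2 ratio of -0.63 (SE 0.29; unadjusted p = 0.0469, adjusted p = 0.399) was -0.14 (SE 0.30) without the lettered libraries.

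Elovl5, the elongase of polyunsaturated chains, had 151, 167, 177, 156 and 138 CPM in the Cre- mice, against 114, 184, 211, 102 and 143 CPM in the Cre+ mice. The Cre+ mice spread wider, on both sides of the Cre- mice, with the 3 lettered mice below the other two. Its log2 ratio was -0.07 (SE 0.18; adjusted p = 0.913, 95% interval 0.721 to 1.26-fold). Without the 3 lettered libraries it was 0.32 (SE 0.10, unadjusted p = 0.0123, adjusted p = 0.314).

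Scd1, which makes oleate and palmitoleate, was the member with the smallest p. It had 49686, 54977, 54830, 58869 and 49074 CPM in Cre- mice 1 to 5 and 38857, 51711, 51081, 46500 and 36635 CPM in Cre+ mice 1 to 5. The lettered mice Cre+ 1, 4 and 5 lay below all other mice, and Cre+ 2 and 3 lay inside the Cre- range. The 3 lettered libraries lay below all 7 others for Scd1 and Elovl7 among the members, as for 2.58% of all genes tested, and above them for no member and 2.97% of all genes.

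The means of Scd1 were 53487 ± 4090 CPM (Cre-) against 44957 ± 6928 CPM (Cre+; SD, n = 5 each), a log2 ratio of -0.25 (SE 0.11; unadjusted p = 0.0343, adjusted p = 0.364). The 95% interval of 0.717 to 0.985-fold was the narrowest of the members. Without the 3 lettered libraries the log2 ratio was -0.06 (SE 0.11; adjusted p = 0.919). Under each of the other alternatives, including 2 other scalings, it stayed negative and the adjusted p was at least 0.153.

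Scd2, the isoform known from brain and developing tissues, had 157, 544, 310, 247 and 229 CPM in the Cre- mice, against 78.5, 152, 368, 364 and 306 CPM in the Cre+ mice. It varied 6.93-fold among mice, with Cre- 2 highest and Cre+ 1 lowest, and the groups overlapped over most of their range. The log2 ratio of -0.23 (SE 0.48; adjusted p = 0.883) had a 95% interval of 0.40 to 1.82-fold, and it was 0.11 without mouse Cre- 2.

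Among the desaturases of polyunsaturated synthesis, Fads1 had 13.6, 10.97, 13.8, 12.5 and 9.05 CPM in the Cre- mice, against 10.2, 9.83, 16.3, 17.96 and 12.0 CPM in the Cre+ mice. Mice Cre+ 3 and 4 lay above the Cre- mice and the others within their range. The log2 ratio was 0.14 (SE 0.18; adjusted p = 0.782, 95% interval 0.845 to 1.44-fold).

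Fads2, which catalyses the first desaturation of essential fatty acids, had 8.56, 7.09, 9.46, 10.04 and 8.20 CPM in the Cre- mice, against 10.95, 8.23, 9.02, 10.96 and 7.68 CPM in the Cre+ mice. From the lowest to the highest of all 10 mice it varied 1.55-fold, the least of the members. Within the genotypes the SD relative to the mean was smaller for Scd1 (7.65% in Cre- and 15.4% in Cre+) than for Fads2 (13.2% and 16.3%). For Fads2 the log2 ratio was 0.11 (SE 0.13; adjusted p = 0.768, 95% interval 0.89 to 1.31-fold).

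Fads3, a desaturase of sphingoid bases, had 17.7, 11.9, 15.1, 14.4 and 10.3 CPM in the Cre- mice, against 12.9, 9.46, 16.5, 33.5 and 12.5 CPM in the Cre+ mice. Mouse Cre+ 4 stood well above the rest, and the other Cre+ mice lay within or just below the Cre- range. The same mouse had the highest summed CPM of the white adipocyte list (113 against 39.8 to 94.6 in the other 9), and its muscle transcripts are given above. Most of that sum was Npr3 (94.3 CPM), while Lep and Hoxc8 were higher in some other mice. Mouse Cre- 2, highest in muscle transcripts and next in the white adipocyte sum (94.6 CPM), had 11.9 CPM of Fads3. The part of these transcripts in the Fads3 values was not tested. The log2 ratio of Fads3 was 0.29 (SE 0.32; adjusted p = 0.76) with mouse Cre+ 4 and -0.12 without it.

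The 95% intervals of Elovl1, Elovl5, Elovl6, Scd1, Fads1 and Fads2, 6 of the 10 members, lay within a 1.5-fold change in either direction. Those of Elovl3, Elovl7, Scd2 and Fads3 did not. These intervals are not adjusted for the number of genes.

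**Figure D2:**
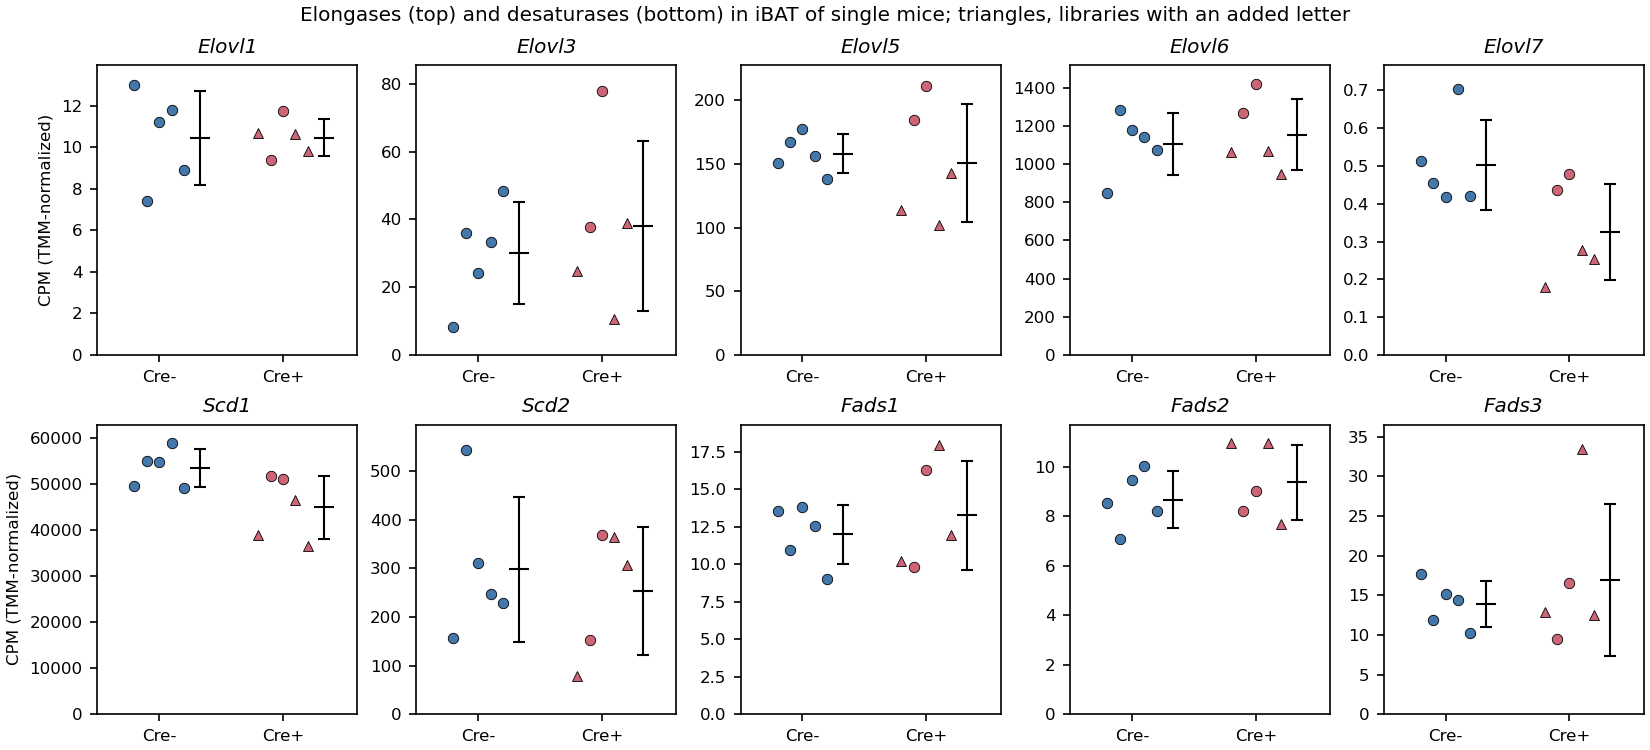
CPM of the 5 elongases (top) and 5 desaturases (bottom) in each mouse, on linear axes from 0. Points are mice, triangles the 3 lettered Cre+ libraries, and bars the mean ± SD of 5 mice. The triangles lie lowest for Scd1 (36635 to 46500 CPM) and Elovl7, and Elovl3 and Scd2 spread 9.31-fold and 6.93-fold over mice.

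**Figure D3:**
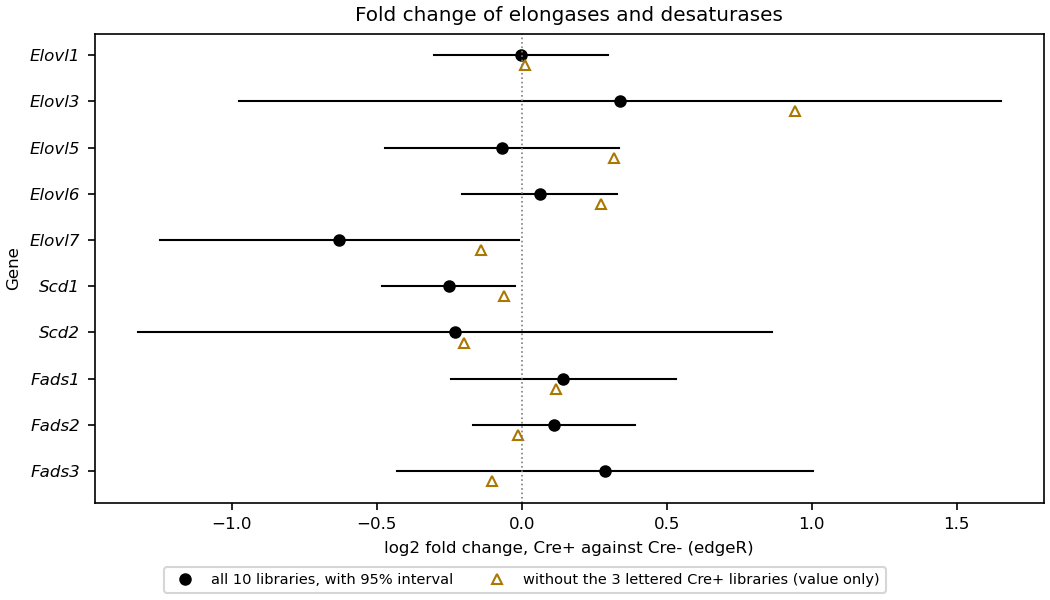
log2 ratio of Cre+ against Cre- mice for each member from edgeR with all 10 libraries (dots, lines for the 95% interval) and without the 3 lettered Cre+ libraries (triangles, value only). The intervals of Scd1 and Elovl7 have their upper ends just below 0, and the triangles of these genes lie at -0.06 and -0.14.

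To see how the members varied among mice apart from genotype, the log2 CPM of each was centred on its genotype mean and all 45 pairs were correlated over 10 mice. All pairs share the same libraries and depth. Of the 45 pairs, 32 had a positive Pearson r. Only Fads1 and Fads3 passed an adjusted p under 0.05 (Pearson r = 0.89, p = 0.000417, adjusted p = 0.0188; Spearman rho = 0.90, p = 0.000903, adjusted p = 0.0406; exact permutation within genotype, two-sided, smallest possible p 6.9e-05). Mice Cre- 5 and Cre+ 2 were low in both genes and Cre+ 4 high in both. Without the 2 mice farthest from the median of Fads1, r was 0.88, and without Cre+ 4 it was 0.90. Fads1 and Fads3 share no window of 51 bases. Fads2, which lies between them, had an r of 0.39 with Fads1 (adjusted p = 0.637) and 0.57 with Fads3 (adjusted p = 0.434).

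The call did not hold without some of the mice. Leaving out mice also leaves fewer permutations and a larger smallest possible p, so a lost call does not by itself show a weaker correlation. With 9 mice, r of Fads1 and Fads3 stayed between 0.85 and 0.94, and no pair passed by Pearson's r without Cre- 2 (adjusted p of Fads1 and Fads3 0.0938), Cre- 4 (0.0625), Cre- 5 (0.0938), Cre+ 1 (0.109), Cre+ 2 (0.25) or Cre+ 4 (0.125). By Spearman's rho, Fads1 and Fads3 did not pass without any of these 6 mice, nor without Cre+ 3 (exact permutation, adjusted p = 0.102) or Cre+ 5 (0.172). Without Cre+ 3, 2 pairs passed by Pearson's r, the second being Elovl3 and Fads3 with r = -0.82 (exact permutation, adjusted p = 0.0312). By Spearman's rho this pair did not pass there (exact permutation, adjusted p = 0.0781). Over all 10 mice its r was -0.66, and 0.10 without the 2 mice farthest from the median of Elovl3. With Cre+ 3 already left out, r without the 2 farthest mice was -0.65.

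A further 5 pairs had an unadjusted permutation p under 0.05 and an adjusted p of 0.316. They were Elovl7 with Scd1 (r = 0.80, rho = 0.84, r = 0.71 without the 2 farthest mice), Elovl6 with Scd1 (r = 0.76, rho = 0.72, 0.77 without the 2 mice), and Elovl1 with Fads1 (r = 0.57), Fads2 (r = 0.61) and Fads3 (r = 0.48). The 3 lettered Cre+ mice lay below the other 2 in Elovl5, Elovl6, Elovl7 and Scd1. The share of all genes with such a split was not counted, so it is open whether this is more than usual. The part of this split in the pairs with Scd1 was not tested.

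**Figure D4:**
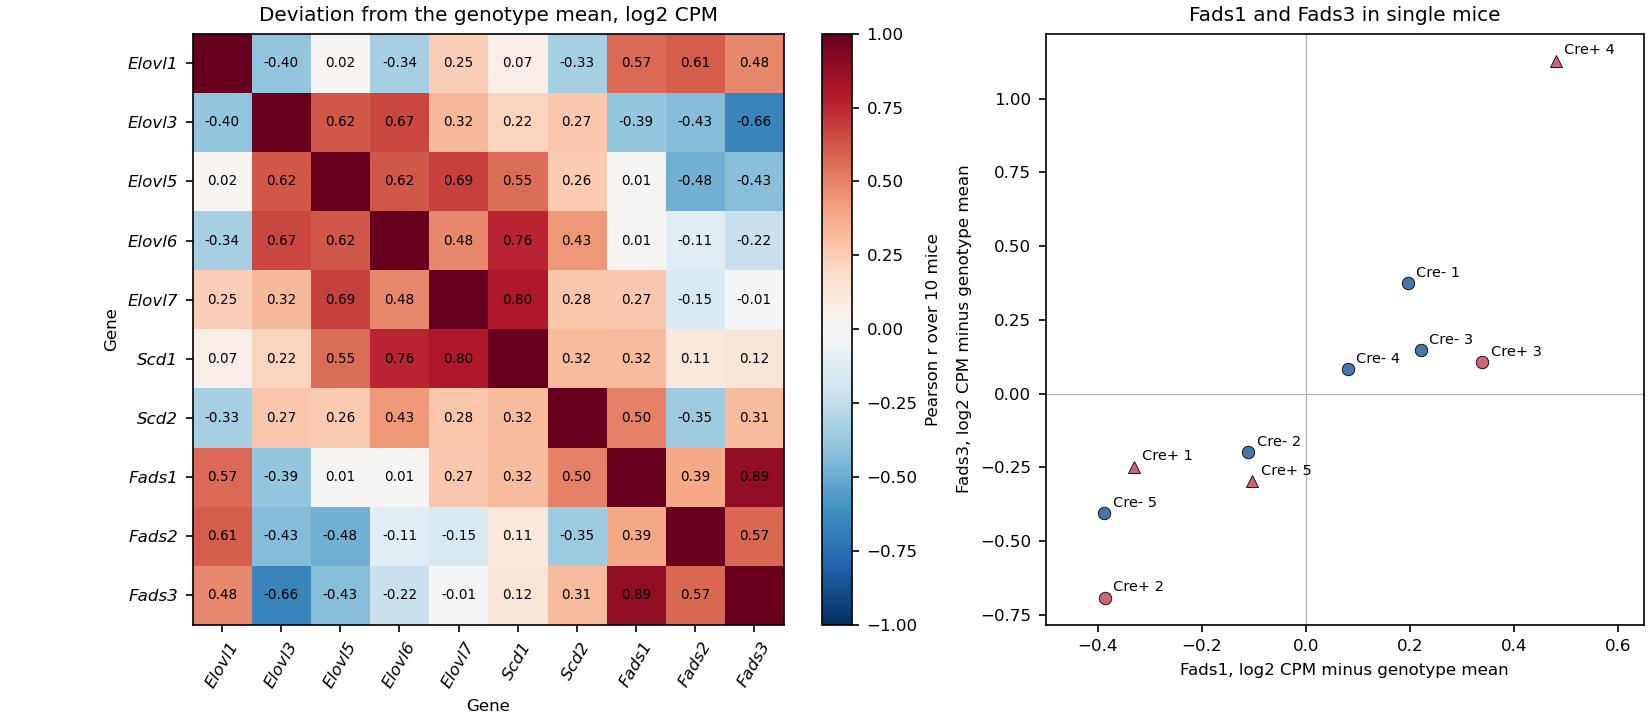
Left, Pearson r of each pair of members over 10 mice after the genotype mean of log2 CPM was removed. Right, Fads1 against Fads3 in the same mice (triangles, lettered libraries), with r = 0.89 and mouse Cre+ 4 at the upper end.

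Among 11411 genes searched, those with the pattern over the 10 mice most like Elovl3 were Gin1 (r = 0.97), the small GTPase gene Rab24 (r = 0.97) and AC132307.3 (r = 0.97). For Elovl6 they were the proteoglycan gene Ncan (r = 0.94), the proteasome subunit gene Psmd11 (r = 0.93) and Acaca (r = 0.92), the acetyl-CoA carboxylase that makes the malonyl-CoA used by elongases. For Scd1 they were the focal adhesion gene Parva (r = 0.92), the receptor gene Tlr4 (r = 0.89) and Trim30a (r = 0.89). These are the highest of many values of r and are given as a description.

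The genes that serve the elongases and desaturases were examined as lists. In every list edgeR called 0 genes, against 0.164% of all genes tested, and limma voom called 0. Other family genes were scarce: Elovl2, Elovl4, Scd3, Scd4 and Fads6 summed to 1.32 to 2.21 CPM per mouse.

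The partners in the elongation cycle, which reduce and dehydrate the product of the elongase, had 3 positive and 3 negative log2 ratios among 6 tested, with a median of 0.03. The reductases Hsd17b12 (365 ± 40.2 CPM in Cre-, 385 ± 42.7 in Cre+) and Tecr (294 ± 37.6 and 314 ± 28.9 CPM) were the most abundant, and the dehydratase Hacd2 had 107 ± 22.6 and 122 ± 28.3 CPM. None of the 6 had an unadjusted p under 0.05. The cytochrome b5 genes and their reductases, which bring electrons to the desaturases, had a median of 0.02 over 6 genes, with 128 ± 10.5 and 126 ± 9.86 CPM for Cyb5a and 127 ± 7.72 and 140 ± 14.3 CPM for Cyb5r3 (log2 ratio 0.14, SE 0.08, adjusted p = 0.486). Cyb5r2, the gene of this list with the smallest p, was scarce, with 0.152 ± 0.0457 CPM (Cre-) against 0.0840 ± 0.0541 CPM (Cre+), and had a log2 ratio of -0.84 (SE 0.45; unadjusted p = 0.0836, adjusted p = 0.474).

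The genes that supply malonyl-CoA and palmitate were positive in 7 of 8 cases with a median of 0.10, where 50.3% of all genes tested were positive, and none had an unadjusted p under 0.05. The citrate carrier Slc25a1 had a log2 ratio of 0.37 (SE 0.22; adjusted p = 0.539) and fatty acid synthase, Fasn, of 0.23 (SE 0.14, adjusted p = 0.547). Summed, this list had 34860 ± 7907 CPM (Cre-) against 39539 ± 6558 CPM (Cre+) (SD, n = 5 each), and lowest of all was mouse Cre- 1 (23251 CPM), the mouse lowest in Elovl3 and Elovl6 as well.

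Of the acyl-CoA synthetases and peroxisomal genes, which activate fatty acids and shorten very long polyunsaturated chains, 8 of 9 tested were positive with a median of 0.12. Acaa1a, a peroxisomal thiolase, had 137 ± 8.39 CPM (Cre-) against 157 ± 9.61 CPM (Cre+) (log2 ratio 0.19, SE 0.07, unadjusted p = 0.0111, adjusted p = 0.257). Of the genes that use acyl-CoA for ceramides and phospholipids, 4 of 10 tested were positive with a median of -0.05. The lysophospholipid acyltransferase Mboat2 had 1.78 ± 0.408 CPM (Cre-) against 1.09 ± 0.196 CPM (Cre+) (log2 ratio -0.71, SE 0.19, adjusted p = 0.163). It was the only gene of these lists called by DESeq2 (adjusted p = 0.0188). Agpat3, which acylates lysophosphatidic acid, had a log2 ratio of 0.17 (SE 0.08; unadjusted p = 0.0476, adjusted p = 0.4).

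Among 14 regulators of these genes, 10 were positive with a median of 0.06, and 3 were higher in Cre+ mice at an unadjusted p under 0.05, where 6.40% of all genes tested were. Srebf1, the sterol-responsive factor that drives lipogenic genes including Scd1 and Elovl6, had 314 ± 59.2 CPM (Cre-) against 463 ± 134 CPM (Cre+) (SD, n = 5 each). Its log2 ratio was 0.56 (SE 0.20; unadjusted p = 0.0164, adjusted p = 0.288), and 0.61 (SE 0.24) without the 3 lettered libraries. The liver X receptor gene Nr1h2 (0.19, SE 0.08, adjusted p = 0.364) and its partner Rxra (0.19, SE 0.08, adjusted p = 0.37) were the others, and without the lettered libraries these log2 ratios were 0.01 and 0.16.

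**Figure D5:**
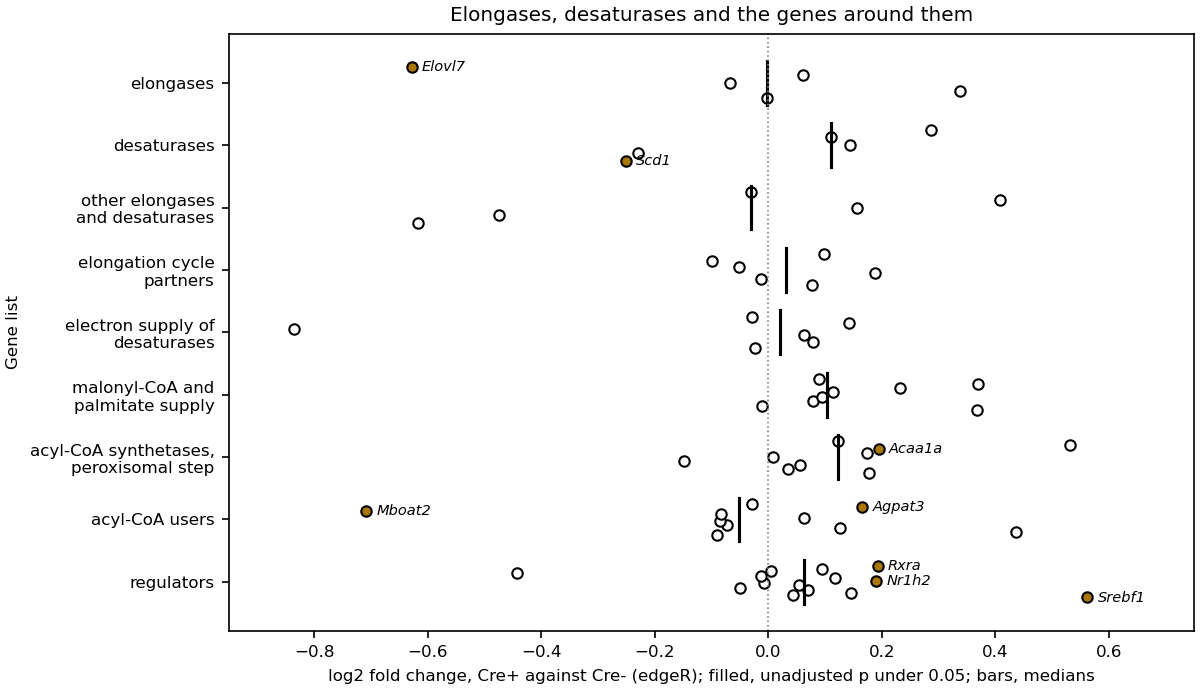
log2 ratio of Cre+ against Cre- mice for the elongases, the desaturases and 7 lists of genes around them, 1 point per gene tested, with a bar at each list's median. Filled, named points had an unadjusted p under 0.05. Mboat2 (-0.71) and Elovl7 (-0.63) lie farthest out among those lower in Cre+ mice and Srebf1 (0.56) among those higher, and no gene shown passed an adjusted p under 0.05 by edgeR.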

How the data were processed

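RNAseq libraries of iBAT after poly(A) selection from 5 Cre- and 5 Cre+ mice were analysed and grouped by the genotype in the labels. The authors trimmed reads with Trimmomatic, mapped them with STAR to GRCm39 and deposited raw counts per gene of GENCODE M28 from featureCounts 2.0.1. Versions of Trimmomatic and STAR were not given in the sources used here. Mates were counted separately and without regard to strand, and multiply aligned reads were left out. For RNA isolation the labels and the paper name different kits. Symbols matched 52081 of 55414 genes.

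Genotypes were compared in edgeR 4.0.16 (R 4.3.3) by the robust quasi-likelihood F test after TMM and filterByExpr (minimum count 10, minimum total 15). P-values were adjusted by Benjamini-Hochberg over the 17690 genes kept, and calls were made at an adjusted p under 0.05. All 10 members passed the filter. As SE, the size of the log2 fold change over the square root of F was taken. CPM, RPKM and TPM were computed here from the deposited counts and gene lengths, with a prior count of 2 for log2 CPM. Correlations used all 14400 permutations within genotype, with adjustment over 45 pairs. Replicates are different mice. The tests were tested on simulated data.

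The members, lists and tests were chosen with earlier results of these data known. The rule for named genes takes RetSat, the members, up to 4 genes per list with the smallest p and any called, and the 3 genes most like Elovl3, Elovl6 and Scd1 in pattern among symbols that are not predicted genes and have a mean log2 CPM of at least 0. Cyb5a, the summed lists, Dio2, Ppargc1a and genes of the white adipocyte list are given for their level, and other single marker genes for their call by DESeq2, chosen after their values were seen. Values of some single marker genes are left out of this text. Tecrl, Acsl6 and Cers1 were too low to be tested. Alternatives were DESeq2 1.42.0, limma 3.58.1 voom with sample weights, other scalings and filters, a replicate block, and leaving out libraries.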

Additional observations from a re-analysis of the deposited data

How the results depend on the processing

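The count of members called was 0 under all 19 alternatives, and Scd1 and Elovl7 kept a negative log2 fold change under each of them. The count over all genes was less stable: 29 genes by edgeR, 393 by DESeq2, 148 by limma voom, 92 with no filter on low counts, 289 without mice Cre- 2 and Cre+ 4 together, and 9 to 331 with single libraries left out (331 without Cre+ 4, 9 without Cre+ 1). Without the lettered libraries 43 genes were called. Deviations of same-numbered mice from their genotype means correlated with r of -0.195 to 0.216. These values cannot decide whether the numbers pair the mice. With the replicate block 23 genes and 0 members were called, and of the named genes only Elovl1 changed sign (0.0228). The causes of these differences were not tested.

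Signs changed under at least 1 alternative for every member except Scd1 and Elovl7, none with an adjusted p under 0.05. Fads1 (0.00925 to 0.23) and Fads2 (0.0475 to 0.17) kept their sign with single mice left out, and changed it only with several libraries left out together. Elovl1 was 0.000259 by DESeq2, 0.00125 with DESeq2 size factors, 0.00197 with a scaling on nuclear genes alone and 0.0108 without the lettered libraries, and ranged from -0.0988 to 0.0885 with single mice left out. Left-out ranges were -0.10 to 0.58 for Elovl3, -0.22 to 0.0441 for Elovl5, -0.0266 to 0.12 for Elovl6, -0.41 to 0.11 for Scd2 and -0.12 to 0.44 for Fads3. Without the lettered libraries Elovl5 was 0.32, Fads2 -0.0127 and Fads3 -0.10. Without Cre- 2 and Cre+ 4, Elovl5 was 0.0655, Fads1 -0.0210, Fads2 -0.0163 and Fads3 -0.17. Of the other named genes, Hacd3 ranged from -0.0901 to 0.00132 and Cyb5b from -0.0190 to 0.15 with single mice left out, and Hacd3 was 0.0336 without the lettered libraries. Mboat2 was called by DESeq2 and by no other alternative.

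The number of correlated pairs past the threshold by Pearson's r was 1, and 1 without TMM. It was 0 without Cre- 2 and Cre+ 4, a setting with too few permutations for a single pair to pass. There r of Fads1 and Fads3 was 0.90 (exact permutation, p = 0.0104, adjusted p = 0.234). With single mice left out the number was 0 to 2: 0 without Cre- 2, 4 or 5 or Cre+ 1, 2 or 4, and 2 without Cre+ 3. The order of the members was the same by TPM. With other scalings the median of all genes moved by at most 0.00301 on the log2 scale. Elovl7, with 20 to 82 counts per library, is the member that depth limits most.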
